A study of Homo sapiens with 6 samples.

Results

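The genes described here encode the subunits of the oxidative phosphorylation machinery and a few close relatives that share their names. Members were taken by symbol: NDUFA, NDUFB, NDUFC, NDUFS and NDUFV genes, SDHA to SDHD, UQCR genes, CYC1 and CYCS, COX genes numbered from COX4 to COX8, ATP5 genes, and the genes of mitochondrial DNA. The rule found 113 of the 19727 genes in the expression table, 13 encoded in mitochondrial DNA and 100 in the nucleus. Of these, 97 encode subunits of complexes I to V and 16 do not. The 16 are 8 complex I assembly factors (NDUFAF), 2 readthrough transcripts, 2 intron-less copies of subunit genes, the cytochrome c oxidase paralogs NDUFA4L2 and COX7A2L, the ATP synthase inhibitor ATP5IF1 and cytochrome c itself (CYCS). NDUFA4, named as a complex I gene, was placed with complex IV, where its protein resides.

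Complexes I and II pass electrons from NADH and succinate to coenzyme Q, complex III hands them to cytochrome c, and complex IV passes them to oxygen. Proton pumping by complexes I, III and IV drives ATP synthesis by complex V, the ATP synthase. Complex II is wholly nuclear encoded, whereas the other complexes combine nuclear subunits with a catalytic or proton-conducting core made inside the mitochondrion, so that their assembly draws on both genomes.

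The study measured mRNA in DU145, an androgen-independent human prostate carcinoma line derived from a metastasis. Lines carrying a lentivirus that overexpresses the circular RNA circCSPP1 (lentivirus-circCSPP1, here circCSPP1, 3 libraries) were compared with lines carrying a negative control lentivirus (lentivirus-NC, here NC, 3 libraries). Both groups were stable lines under puromycin selection in 1 cell line, and the poly(A) RNA of each library was sequenced in read pairs. The labels do not say whether the 3 libraries of a group came from separate cultures, so the p-values below measure only the spread between these libraries, which may be technical.

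Values are FPKM, a level scaled to transcript length and to the mapped fragments of the library. The steps between low FPKM values placed the libraries at 28600000 to 36700000 fragments. Of the epithelial markers EPCAM, CDH1, KRT8, KRT18 and KRT19, 5 of 5 were present and 5 of 5 were lower in circCSPP1 by limma, with a summed level of 2271 to 2361 FPKM in NC and 1046 to 1278 FPKM in circCSPP1. Of the prostate luminal markers, KLK3 and KLK2 were listed at 0 in every library. Markers of leukocytes, endothelium and fibroblasts summed to 46.6 to 53.0 FPKM in NC and 36.9 to 51.9 FPKM in circCSPP1, of which most was CD68, while CD3E and LUM were listed at 0 and the fibroblast collagen COL1A1 fell from 3.26 to 1.15 FPKM. The part of the epithelial change in the results below was not tested.

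Mitochondrial genes overlap on the compact circular genome, which bears on how their levels can be read. MT-ND4L and MT-ND4, 2 membrane subunits of complex I, are read from 1 bicistronic mRNA and share 7 bases. The junction is shown because these neighbours had the lowest ratios among the mitochondrial genes that fell; capitals mark the shared bases, which end the first gene and start the second (GENCODE 29, GRCh38, plus strand).
MT-ND4L chrM:10737-10766: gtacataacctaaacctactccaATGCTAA
MT-ND4 chrM:10760-10789: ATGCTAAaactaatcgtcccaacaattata
In the same way MT-ATP8 and MT-ATP6 share 46 bases (chrM:8527-8572) and MT-ATP6 and MT-CO3 share 1 base (chrM:9207-9207). The sources used here do not state how fragments over shared bases were counted, and near-identical nuclear copies of mitochondrial DNA can also take up fragments.

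A gene was tested when it averaged 1 FPKM or more over the 6 libraries, and it was called changed when the adjusted p of limma on log2(FPKM + 1), with Benjamini-Hochberg adjustment over all tested genes, was under 0.05. Fold changes are on that scale, circCSPP1 over NC, and understate the change of genes with low levels. Of 113 members, 106 passed the filter, 2 rose and 11 fell. Among all 12322 tested genes 11.4% were called, 4.69% higher and 6.66% lower, whereas among the tested members 12.3% were called, 1.89% higher and 10.4% lower. The median log2 fold change of the tested members was -0.10, beside -0.03 for all tested genes.

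The 11 members that fell were divided unequally between the genomes. Of the 13 mitochondrial genes 7 fell and none rose. These genes are not independent observations, since neighbours such as MT-ND4L and MT-ND4, both among the 7, share 1 mRNA. Of the 93 tested nuclear members 4 fell and 2 rose, a called share of 6.45%. Among the 4 was COX6B2, which passed the filter only through its NC level. The median log2 fold change was -0.56 over the mitochondrial genes and -0.07 over the tested nuclear members. The fold change of all 13 mitochondrial genes was negative, except that quantile normalization turned MT-CO1, MT-CO2 and MT-CO3 positive (0.07, 0.05 and 0.18). In 11 of the 13 the circCSPP1 libraries all lay below the NC libraries, a pattern found in 20.5% of all tested genes (36.4% when separation in either direction is counted).

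**Figure D1:**
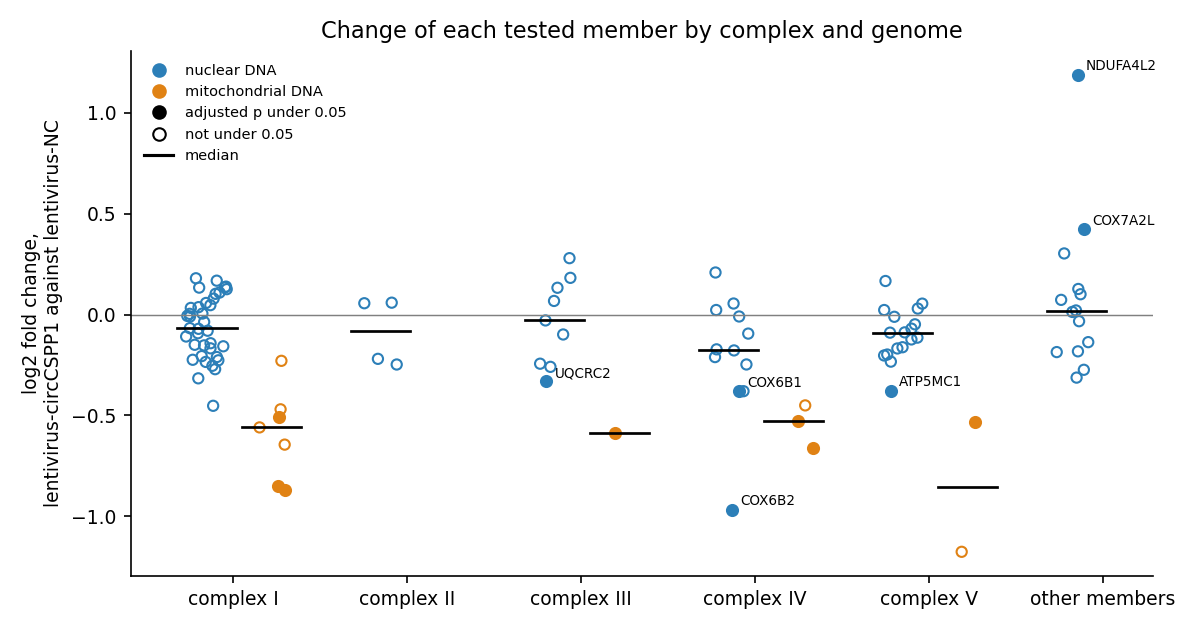
Log2 fold change (vertical axis) of each tested member by complex (horizontal axis), with nuclear members in blue, mitochondrial members in orange, filled points past an adjusted p of 0.05 in limma and bars at the medians. All 13 mitochondrial genes lie below 0 and 7 are filled, whereas the nuclear subunits of complex I hold no filled point; under quantile normalization MT-CO1, MT-CO2 and MT-CO3 lie above 0.

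The mitochondrial genes together made up 11.5%, 11.7% and 11.9% of summed FPKM in the NC libraries and 6.63%, 8.58% and 8.07% in the circCSPP1 libraries. The means were 11.7% ± 0.2 and 7.76% ± 1.01 (SD, n = 3 each), and the groups did not overlap. The 100 nuclear members held 1.56%, 1.57% and 1.56% in NC and 1.57%, 1.49% and 1.56% in circCSPP1. As a result the ratio of mitochondrial to nuclear member FPKM was 7.48 ± 0.103 in NC and 5.06 ± 0.779 in circCSPP1 (SD, n = 3 each). In a share of a fixed total, a lower mitochondrial share raises the share of the other genes, and in such bulk libraries less RNA per cell and fewer cells of a type cannot be told apart.

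**Figure D2:**
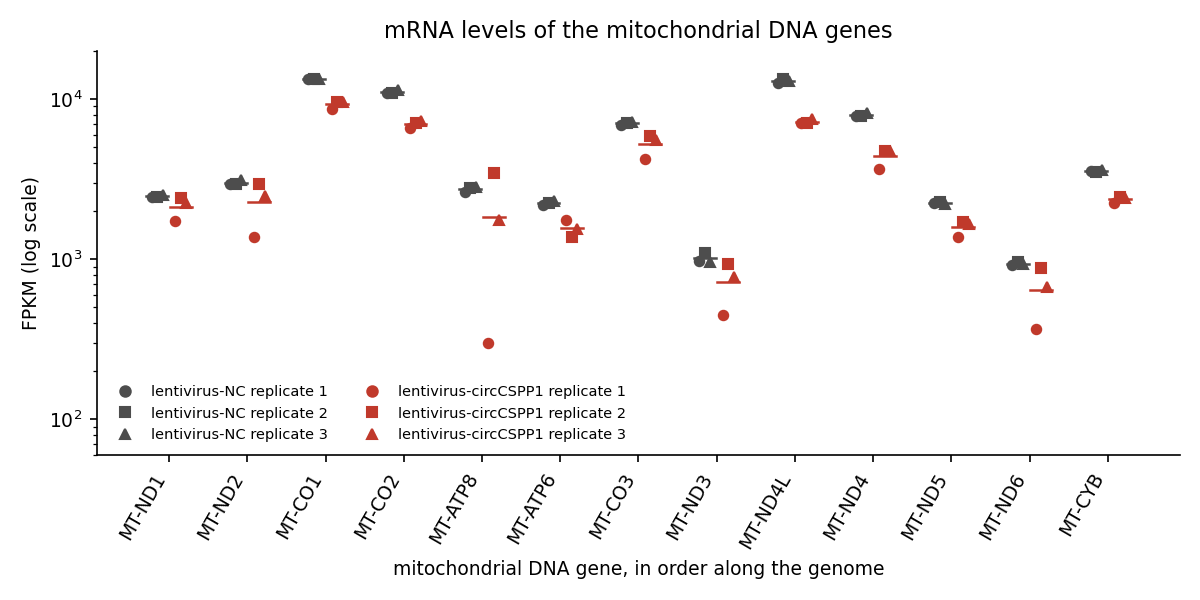
FPKM (vertical axis, log scale) of the 13 mitochondrial genes in the order of the genome (horizontal axis), with 1 point per library, grey for NC, red for circCSPP1, and short bars at the group means. The groups separate in 11 genes; MT-ND2 and MT-ATP8 overlap, and MT-ATP8 reaches its lowest value, 298.6 FPKM, in circCSPP1 replicate 1.

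Among the mitochondrial subunits of complex I, the neighbours MT-ND4L and MT-ND4 had the lowest ratios of circCSPP1 to NC among those that fell. MT-ND4L (chrM:10470-10766) was measured at 12645, 13319 and 13020 FPKM in NC and at 7060, 7072 and 7503 FPKM in circCSPP1. MT-ND4 (chrM:10760-12137) was at 7799, 7838 and 8207 FPKM and at 3650, 4747 and 4754 FPKM, respectively. Neither gene's groups overlapped, and the MT-ND4 value of circCSPP1 replicate 1 lay below those of replicates 2 and 3. MT-ND4L fell by 0.85 on the log2 scale (SE 0.055, adjusted p = 0.0011 by limma), to a ratio of means of 0.555, and MT-ND4 fell by 0.87 (SE 0.11, adjusted p = 0.0050), to 0.552. Quantile normalization ended both calls, with log2 fold changes of -0.11 (adjusted p = 0.31) and -0.43 (adjusted p = 0.18). The ratio of MT-ND4L to MT-ND4 FPKM was 1.64 ± 0.0569 in NC and 1.67 ± 0.233 in circCSPP1 (SD, n = 3 each), a difference within the spread between replicates.

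MT-ND5 (chrM:12337-14148), which forms the most distal pump module of complex I, fell as well. Its level was 2235, 2277 and 2223 FPKM in NC and 1384, 1702 and 1665 FPKM in circCSPP1, without overlap (log2 fold change -0.51, SE 0.088, adjusted p = 0.013 by limma). Without NC replicate 1, 2 or 3 the adjusted p was 0.070, 0.077 and 0.062.

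MT-ND1, MT-ND2, MT-ND3 and MT-ND6, further membrane subunits of complex I, did not pass the test. MT-ND1 (chrM:3307-4262) was at 2455, 2441 and 2512 FPKM in NC and at 1724, 2421 and 2240 FPKM in circCSPP1, the smallest difference of the 13 (log2 fold change -0.23, adjusted p = 0.26 by limma, 95% interval -0.51 to 0.05). MT-ND2 (chrM:4470-5511) was at 2929, 2934 and 3105 FPKM against 1374, 2960 and 2470 FPKM, and the groups overlapped through replicate 2. In MT-ND3 (chrM:10059-10404) the adjusted p was 0.18 (log2 fold change -0.56, limma), with 977.6, 1096 and 959.5 FPKM against 448.1, 927.0 and 772.5 FPKM. In each of these genes replicate 1 was the lowest circCSPP1 library by a wide margin. MT-ND6, the only protein gene on the other strand (chrM:14149-14673, minus strand), was at 920.8, 960.3 and 939.0 FPKM in NC and at 368.5, 881.4 and 668.2 FPKM in circCSPP1 (log2 fold change -0.64, adjusted p = 0.18 by limma).

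In complexes III and IV, 3 of the 4 mitochondrial genes fell. MT-CYB (chrM:14747-15887), the cytochrome b that forms the quinone sites of complex III, was at 3535, 3493 and 3600 FPKM in NC and at 2233, 2429 and 2416 FPKM in circCSPP1. It fell by 0.59 on the log2 scale (SE 0.060, adjusted p = 0.0029 by limma), to a ratio of 0.666. MT-CO1 (chrM:5904-7445), the catalytic subunit that reduces oxygen, was at 13265, 13288 and 13412 FPKM in NC and at 8647, 9579 and 9538 FPKM in circCSPP1. Both genes were low throughout the circCSPP1 group and lowest in replicate 1. MT-CO1 fell by 0.53 (SE 0.060, adjusted p = 0.0040 by limma), to a ratio of 0.695, and was the member with the highest mean level.

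MT-CO2 (chrM:7586-8269), which receives electrons from cytochrome c, was at 10840, 10901 and 11309 FPKM in NC and at 6563, 7093 and 7255 FPKM in circCSPP1. It fell by 0.66 (SE 0.060, adjusted p = 0.0021 by limma), to a ratio of 0.633. The third core subunit, MT-CO3 (chrM:9207-9990), was at 6901, 7087 and 7208 FPKM against 4213, 5907 and 5556 FPKM. Its groups did not overlap either, but replicate 1 stood apart and the adjusted p was 0.055 (log2 fold change -0.45, limma), and 0.0046 without that library. Quantile normalization, which gives the highest ranks the same value in every library, reversed the direction of all 3 of these genes (log2 fold changes 0.07, 0.05 and 0.18) and called MT-CO3 higher (adjusted p = 0.020).

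The mitochondrial subunits of complex V showed the least alike behaviour. MT-ATP6 (chrM:8527-9207), the proton channel subunit, was at 2181, 2253 and 2322 FPKM in NC and at 1762, 1380 and 1549 FPKM in circCSPP1. It fell by 0.53 on the log2 scale (SE 0.094, adjusted p = 0.015 by limma), and its highest circCSPP1 value was that of replicate 1. Without any 1 of the NC libraries or circCSPP1 replicate 3 its adjusted p was 0.062 to 0.077. MT-ATP8 (chrM:8366-8572), a short membrane subunit from the same mRNA, was at 2644, 2774 and 2821 FPKM against 298.6, 3428 and 1751 FPKM. Its circCSPP1 libraries thus lay on both sides of the NC libraries (log2 fold change -1.18, SE 0.77, adjusted p = 0.36 by limma). The FPKM ratio of MT-ATP8 to MT-ATP6 was 1.21, 1.23 and 1.21 in NC and 0.169, 2.48 and 1.13 in circCSPP1, although the genes share 1 transcript. With an annotated transcript of 207 bases and a GC content of 39.6%, MT-ATP8 was the shortest mitochondrial gene and the one with the lowest GC content.

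Leaving out circCSPP1 replicate 1 raised the number of mitochondrial genes that fell from 7 to 8, while the share of all tested genes called went from 11.4% to 28.5%, and set the log2 fold changes of MT-ND4L, MT-ND4 and MT-CO1 at -0.83, -0.74 and -0.48, whereas those of MT-ND1, MT-ND2 and MT-ATP8 came to -0.08, -0.14 and -0.16. A fit with no filter on low values left the fold changes as they were and passed none of the mitochondrial genes, with a standard error of 0.33 in place of 0.060 for MT-CO1.

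As shares of mitochondrial FPKM, 5 of the 13 genes had groups that did not overlap, a proportion near the 36.4% of all tested genes whose FPKM did not overlap. MT-ND4 went from 11.3% ± 0.183 in NC to 9.49% ± 0.353 in circCSPP1 and MT-ND4L from 18.4% ± 0.372 to 15.8% ± 1.9, without overlap. The shares of MT-ND1 (3.50% ± 0.0433 and 4.59% ± 0.232), MT-ND5 (3.18% ± 0.069 and 3.44% ± 0.0614) and MT-CO3 lay higher in every circCSPP1 library (SD, n = 3 each). The shares of the other 8 genes overlapped. The shares add up to a fixed total, so they are not independent of each other, and an exact permutation test on 3 against 3 libraries cannot go below a two-sided p of 0.1.

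**Figure D3:**
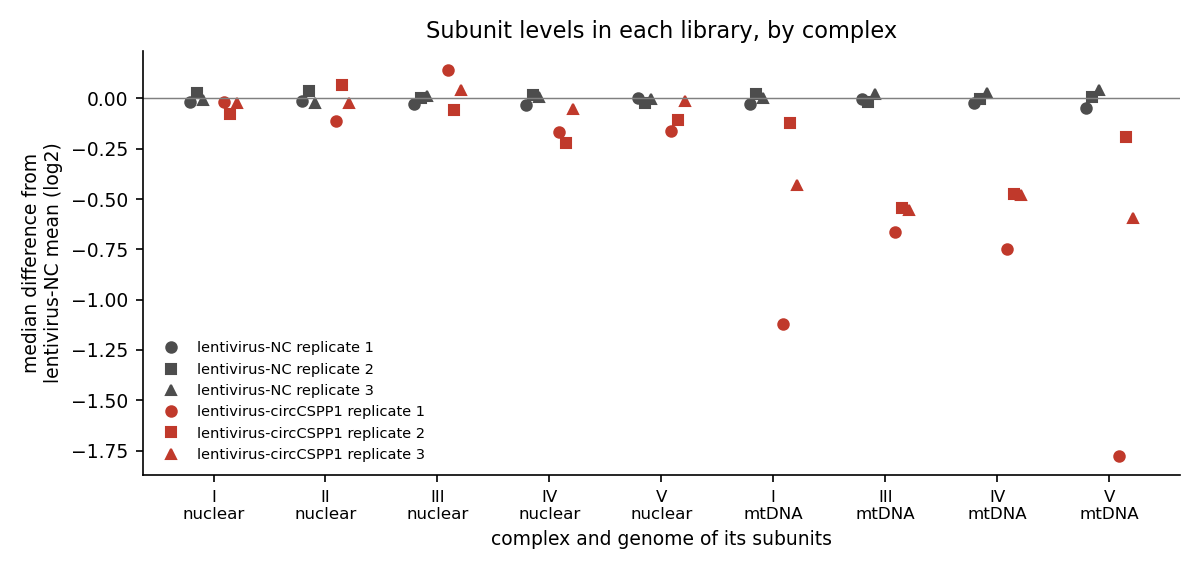
Median difference of the subunits from their NC mean (vertical axis, log2) in each library, by complex and genome (horizontal axis), with grey points for NC and red points for circCSPP1. The mitochondrial (mtDNA) sets are below 0 in all 3 circCSPP1 libraries and lowest in replicate 1, at -1.12 for complex I and -1.78 for complex V. The complex V set is 2 genes, and its low value in replicate 1 comes from MT-ATP8, as MT-ATP6 was highest there. The complex III set is MT-CYB alone. The nuclear sets range from -0.22 (complex IV, replicate 2) to 0.14 (complex III, replicate 1).

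In each circCSPP1 library the median mitochondrial gene lay below the NC mean, by -0.75, -0.40 and -0.49 on the log2 scale in replicates 1, 2 and 3. The corresponding medians of the nuclear members were -0.07, -0.06 and -0.01. By complex the distance between the genomes was not alike in every replicate. In replicate 2 the mitochondrial genes of complex I had a median of -0.12 beside -0.08 for its nuclear genes, and those of complex V -0.19 beside -0.11, while in replicates 1 and 3 the mitochondrial medians were -1.12 and -0.43 for complex I and -1.78 and -0.59 for complex V. The complex V median is the midpoint of 2 genes, which lay far apart in replicate 1. MT-ATP8 was at 298.6 FPKM there, beside an NC mean of 2746, and MT-ATP6 at 1762 FPKM, beside 2252. For the mitochondrial genes of complex IV the medians were -0.75, -0.48 and -0.48, and for MT-CYB the values were -0.67, -0.54 and -0.55.

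The nuclear subunits of complex I, the NADH dehydrogenase with the most subunits of the chain, held no call. None of 37 was called by limma, 4 had an unadjusted p under 0.05, beside 28.2% of all tested genes, and the median log2 fold change was -0.07, within a range of -0.45 to 0.18. The lowest was the accessory subunit NDUFB3, at 46.2, 43.8 and 42.1 FPKM in NC and 26.0, 32.5 and 38.3 FPKM in circCSPP1 (log2 fold change -0.45, adjusted p = 0.084 by limma). The iron-sulfur core subunit NDUFS1, on the electron path from NADH to coenzyme Q, was at -0.23 on the log2 scale (adjusted p = 0.16 by limma). It was lower in each circCSPP1 library than in any NC library. A correction for GC content and transcript length called NDUFB3 lower. NDUFB3 and the further members NDUFB4, NDUFB10, NDUFA6, NDUFS1, COX5A, COX5B, COX6C, UQCRFS1, UQCRC1, ATP5F1A, ATP5F1B, ATP5MC2, ATP5MC3, NDUFAF2 and NDUFAF3, and TFAM, POLRMT, MRPL15, PSMB2 and PSMD1 below, were singled out after their values were seen.

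A few accessory subunits of complex I varied more between replicates than between groups. NDUFB4 was at 57.5, 60.9 and 28.2 FPKM in NC and at 40.4, 50.3 and 27.4 FPKM in circCSPP1. NDUFA6 was at 40.9, 40.5 and 30.4 FPKM against 45.2, 47.2 and 33.8 FPKM. In both genes replicate 3 was the lowest library of each group. NDUFB10 was at 60.1, 58.4 and 107.9 FPKM in NC and at 77.6, 50.9 and 61.7 FPKM in circCSPP1, so that NC replicate 3 stood far above its group.

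The 8 NDUFAF assembly factors, which help to build complex I but are not part of it, had a median log2 fold change of 0.02. None was called by limma, and 1 had an unadjusted p under 0.05. That gene was NDUFAF3, at 77.6, 78.7 and 84.5 FPKM in NC and at 78.9, 58.8 and 57.6 FPKM in circCSPP1 (adjusted p = 0.17 by limma), which the correction for GC content and length called lower. NDUFAF2 had the highest fold change (0.30, adjusted p = 0.42) and spread from 21.1 to 42.3 FPKM among the circCSPP1 libraries.

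Complex II, the succinate dehydrogenase that also belongs to the tricarboxylic acid cycle, has no mitochondrially encoded subunit. None of its 4 genes was called by limma or had an unadjusted p under 0.05, and the groups overlapped in each. The flavoprotein SDHA was at 254.1, 248.8 and 248.1 FPKM in NC and at 249.5, 188.1 and 211.3 FPKM in circCSPP1 (log2 fold change -0.22, adjusted p = 0.23). SDHC, a membrane anchor, had a log2 difference of -0.25 (adjusted p = 0.36), with a low value of 40.9 FPKM in replicate 1. SDHB, the iron-sulfur subunit, and SDHD, the other anchor, had log2 fold changes of 0.06 (95% interval -0.14 to 0.26) and 0.06 (-0.20 to 0.31).

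Of the 9 nuclear genes of complex III, 1 fell (11.1%, beside 6.66% lower among all tested genes). UQCRC2 (chr16:21952660-21983660), a core protein without a redox centre, was at 119.6, 118.3 and 120.2 FPKM in NC and at 88.4, 93.8 and 102.4 FPKM in circCSPP1. It fell by 0.33 on the log2 scale (SE 0.081, adjusted p = 0.041 by limma), without overlap, whereas its partner UQCRC1 had overlapping groups and a log2 fold change of -0.10 (adjusted p = 0.64). The nuclear redox subunits lay on the other side: CYC1, cytochrome c1, was at 150.1, 144.4 and 153.9 FPKM against 219.4, 164.0 and 166.1 FPKM (log2 fold change 0.28, adjusted p = 0.18). UQCRFS1, the Rieske iron-sulfur protein, had a log2 difference of 0.18 (adjusted p = 0.20). Both were higher in each circCSPP1 library, a pattern found in 16.0% of all tested genes, and neither passed the test; the correction for GC content and length called CYC1 higher (adjusted p = 0.018). UQCRC2 was not called without any 1 library other than circCSPP1 replicate 1 (adjusted p = 0.072 to 0.16), nor with the replicate number as a block (adjusted p = 0.090). It was called in 11 of the 19 alternatives.

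Cytochrome c, the carrier between complexes III and IV encoded by CYCS, was at 81.6, 84.9 and 84.6 FPKM in NC and at 38.7, 95.7 and 88.5 FPKM in circCSPP1. Replicate 1 lay far below the other 5 libraries, and the log2 fold change of -0.27 (adjusted p = 0.61 by limma) became 0.14 without it.

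Complex IV held the nuclear subunits with the lowest median, -0.18 over the 12 of 17 that were tested (-0.09 with no filter), and its subunits include pairs of isoforms. COX6B2 (chr19:55349306-55354814), the testis isoform of a subunit on the intermembrane side, was at 2.13, 2.13 and 1.08 FPKM in NC and at 0.39, 0.33 and 0.48 FPKM in circCSPP1. It fell by 0.97 on the log2 scale (SE 0.17, adjusted p = 0.016 by limma), but it passed the filter through its NC level alone, and lay under the filter without NC replicate 1 or 2. Its common counterpart COX6B1 (chr19:35648223-35658861) was at 121.7, 120.3 and 122.5 FPKM against 103.7, 85.2 and 91.7 FPKM. COX6B1 fell by 0.38 (SE 0.090, adjusted p = 0.038 by limma), without overlap, with an adjusted p of 0.071 with the replicate number as a block. It was called in 10 of the 19 alternatives. Its limma adjusted p was 0.089 with median-ratio scaling, 0.064 with no filter and 0.058 with eBayes without a trend. COX6B1 was not called without any 1 library other than circCSPP1 replicate 1 (adjusted p = 0.069 to 0.15), and COX6B2 had an adjusted p of 0.054 without circCSPP1 replicate 3.

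The remaining isoform pairs of complex IV were carried by 1 member each. COX4I1 and COX6A1 had means of 218.9 and 482.8 FPKM in NC and log2 fold changes of 0.05 and -0.01 (adjusted p = 0.70 and 0.96 by limma), while the lung isoform COX4I2 and the muscle isoform COX6A2 were listed at 0 in all 6 libraries. COX7A2 had a log2 difference of -0.17 (adjusted p = 0.26), and its muscle isoform COX7A1 averaged 0.993 FPKM in NC and 0.727 FPKM in circCSPP1, under the filter. COX7B, at 12.2, 12.8 and 12.7 FPKM against 9.24, 8.65 and 10.5 FPKM, did not overlap (log2 fold change -0.38, adjusted p = 0.062), and COX7B2 was listed at 0. COX8A had a log2 difference of -0.09 (adjusted p = 0.53), and COX8C lay under the filter. COX5B and COX6C, which have no isoform among the members, were at 0.21 (adjusted p = 0.17) and -0.25 (adjusted p = 0.12). COX5A was at 0.02 (adjusted p = 0.88).

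The members that rose were both paralogs of complex IV subunits. NDUFA4L2 (chr12:57234903-57240715), a paralog of NDUFA4 known as a target of hypoxia-inducible factor, was at 0.78, 1.47 and 0.96 FPKM in NC and at 4.05, 3.27 and 3.73 FPKM in circCSPP1. It rose from 1.07 ± 0.358 to 3.68 ± 0.392 FPKM (SD, n = 3 each). The log2 fold change was 1.19 (SE 0.15, adjusted p = 0.0053 by limma), the largest rise among the members, from a low level. NDUFA4L2 was called in each of the 18 alternatives that tested it, and the filter at 5 FPKM left it out. NDUFA4 itself was at 26.4, 28.3 and 29.8 FPKM against 20.5, 26.6 and 27.9 FPKM, with overlap (log2 fold change -0.18, adjusted p = 0.42). NDUFA4L2 thus made up 3.64% ± 1.13 of the FPKM of the pair in NC and 13.1% ± 2.97 in circCSPP1 (SD, n = 3 each).

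COX7A2L (chr2:42333546-42425088), a factor that joins complexes III and IV in supercomplexes, was at 21.9, 22.3 and 20.5 FPKM in NC and at 30.8, 29.2 and 27.6 FPKM in circCSPP1. It rose by 0.42 on the log2 scale (SE 0.092, adjusted p = 0.029 by limma), and the groups did not overlap. Without any 1 library other than circCSPP1 replicate 1 the adjusted p was 0.056 to 0.13, and with the replicate block it was 0.069.

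**Figure D4:**
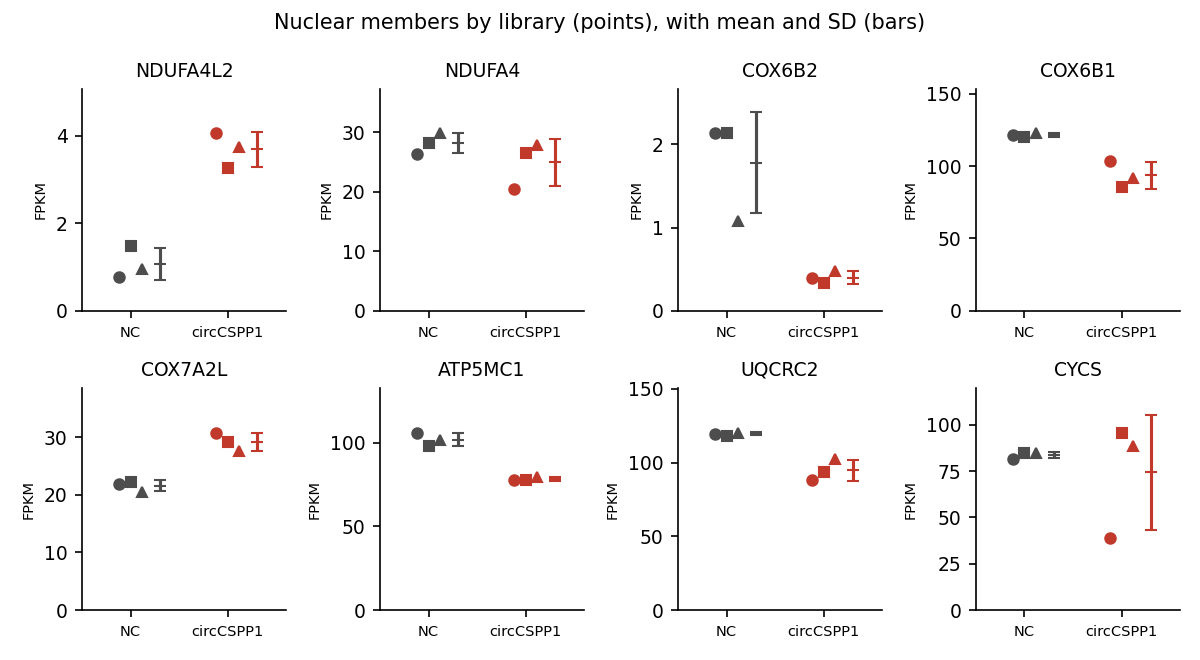
FPKM (vertical axis, from 0) of 8 nuclear members in each NC (grey) and circCSPP1 (red) library, with bars for the mean and SD of 3 libraries; circles, squares and triangles are replicates 1, 2 and 3. NDUFA4L2 and COX7A2L lie higher and COX6B2, COX6B1, ATP5MC1 and UQCRC2 lower in circCSPP1 without overlap, whereas NDUFA4 and CYCS overlap.

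Of the 17 nuclear genes of the ATP synthase, 1 fell (5.88%, beside 6.66% lower among all tested genes). ATP5MC1 (chr17:48892765-48895871), 1 of 3 genes that encode the same mature subunit c of the rotating ring, was at 106.0, 98.1 and 101.4 FPKM in NC and at 77.4, 77.4 and 79.6 FPKM in circCSPP1. It fell by 0.38 on the log2 scale (SE 0.074, adjusted p = 0.020 by limma), to a ratio of 0.768, with an adjusted p of 0.075 to 0.12 without any 1 of the NC libraries or circCSPP1 replicate 3 and of 0.063 with the replicate block. The most abundant of the 3 genes, ATP5MC2, had a log2 difference of 0.03 (adjusted p = 0.87), and ATP5MC3 one of -0.20 (adjusted p = 0.21). Summed over the 3 genes the c-ring transcripts were at 284.2 ± 8.85 FPKM in NC and 260.3 ± 17.5 FPKM in circCSPP1 (SD, n = 3 each). The groups overlapped in this sum, with 276.0 FPKM in NC replicate 2 and 278.4 FPKM in circCSPP1 replicate 1. ATP5MC1 made up 35.8% ± 0.3 of the sum in NC and 30.1% ± 2.07 in circCSPP1 (SD, n = 3 each).

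The catalytic F1 head of the synthase gave no call among 5 genes by limma, none had an unadjusted p under 0.05, and the median log2 fold change was -0.05. ATP5F1B, the catalytic beta subunit and the nuclear member with the highest level, was at 1059, 1043 and 1076 FPKM in NC and at 1110, 1051 and 1067 FPKM in circCSPP1 (log2 fold change 0.02, 95% interval -0.11 to 0.16). ATP5F1A, its alpha partner, had a log2 difference of -0.05 (adjusted p = 0.69). The 4 peripheral stalk genes all had negative fold changes, with a median of -0.16 and no call by limma or at an unadjusted p under 0.05. Negative fold changes were also found in 51 of the 79 tested nuclear subunits of complexes I to V and in 6648 of all 12322 tested genes. ATP5IF1, which blocks reverse rotation of the enzyme, had a log2 difference of 0.10 (adjusted p = 0.50).

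Genes that serve the chain without being part of it were counted by list, against 4.69% higher and 6.66% lower among all tested genes. The assembly factor list gave 61 tested entries, with SCO2 entered under 2 identifiers and the 8 NDUFAF members included, of which 1 rose, UQCC3 (log2 fold change 0.69, adjusted p = 0.023 by limma), which acts in complex III assembly, and none fell. Of 27 genes for mitochondrial DNA maintenance and transcription 1 rose, the protease LONP1 (130.8 ± 5.45 to 211.5 ± 43.0 FPKM, SD, n = 3 each; log2 fold change 0.67, adjusted p = 0.023). The packaging factor TFAM and the RNA polymerase POLRMT had log2 differences of 0.10 (adjusted p = 0.85) and -0.06 (adjusted p = 0.80). Of 14 tested regulators of mitochondrial biogenesis, YY1 rose (0.40, adjusted p = 0.030) and HIF1A fell (-0.62, adjusted p = 0.021). Each of these 4 genes missed the threshold without any 1 of the NC libraries (adjusted p = 0.070 to 0.13).

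On the supply side, 2 of 18 tricarboxylic acid cycle enzymes fell, OGDH (log2 fold change -0.53, adjusted p = 0.028 by limma) and SUCLG2 (-0.70, adjusted p = 0.023). Of 8 enzymes that feed coenzyme Q from other substrates, PRODH (-0.95, adjusted p = 0.022) and SQOR (-0.48, adjusted p = 0.010) fell. Among 15 carriers of ATP, phosphate and protons, UCP2, an inner membrane carrier, fell from 44.7 ± 5.61 to 18.4 ± 1.88 FPKM (SD, n = 3 each; -1.24, adjusted p = 0.0029). Without any 1 of the NC libraries UCP2 was called and the other 4 were not (adjusted p = 0.057 to 0.12). None of 13 coenzyme Q synthesis genes was called by limma, and 4 had an unadjusted p under 0.05, near the 28.2% of all tested genes. For comparison, 1 of 78 mitochondrial ribosomal protein genes (MRPL15) rose and none fell, and 2 of 38 proteasome genes (PSMB2 and PSMD1) fell and none rose. Of 94 tested genes whose symbol starts with RPL or RPS and a digit, 10 rose and none fell. That symbol rule is not confined to cytosolic ribosomal proteins, so these calls cannot all be credited to them.

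The promoters of nuclear respiratory genes are known for binding sites of NRF1, ETS factors and YY1. RefSeq promoters (GRCh38.p14, 250 bases before to 50 after the start) matched 77 of the 100 nuclear members and were searched on both strands. The NRF1 motif GCGCATGCGC was in 5 of the 77 (6.49%), beside 1.36% of all 27305 promoters and 2.33% of the 9725 of tested genes. The windows of these 5 members are shown because the rule did not use this element, which the other matched members lack. Among them NDUFAF5 is an assembly factor. Capitals mark the motif, and each window is given on the strand of its gene.
ATP5F1C chr10:7788145-7788174, plus strand: gggagcttcgGCGCATGCGCgctgaggcct
NDUFA8 chr9:122159764-122159793, minus strand: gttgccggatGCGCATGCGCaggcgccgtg
NDUFAF5 chr20:13785014-13785043, plus strand: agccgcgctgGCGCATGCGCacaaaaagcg
NDUFB4 chr3:120596167-120596196, plus strand: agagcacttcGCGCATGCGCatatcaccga
SDHD chr11:112086753-112086782, plus strand: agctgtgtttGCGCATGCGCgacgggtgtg
The shorter GCGCATG, contained in it, was in 22.1% of the members' promoters, 4.67% of all and 7.77% of those of tested genes. CCGGAAG (ETS) was in 26.0%, 10.7% and 20.1%, and AAGATGGC (YY1) in 14.3%, 3.03% and 5.59%. Of 69 promoters of mitochondrial ribosomal protein genes, 29 held CCGGAAG, 20 AAGATGGC and 7 GCGCATG, larger shares than the members for the first and second and a smaller one for the last. None of the 5 members with GCGCATGCGC was called by limma, and their median log2 fold change was 0.005, beside -0.07 for the other 69 tested members with a promoter. Of the nuclear members that changed, COX6B1 held CCGGAAG, and COX7A2L, UQCRC2, ATP5MC1 and COX6B2 held none of these motifs. These are descriptions of sequence, and NDUFA4L2 was not matched.

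The circCSPP1 libraries differed among themselves along the GC content of the transcript. Taken as the difference of 1 library from the mean of the other replicates, the members' values had a Spearman correlation with GC content of 0.717 in replicate 1, -0.674 in replicate 2 and -0.587 in replicate 3, against 0.145, -0.198 and 0.041 in NC. These are correlations across 106 members within a library, which share depth and base composition, and are given without a test. Within a group the differences of the replicates cancel for each gene, so these correlations are not independent of each other. They do not tell 1 deviating library from several. Over all tested genes the values in circCSPP1 were 0.784, -0.733 and -0.482, so the members followed the rest of the table. The tested mitochondrial genes had a GC content of 39.6 to 47.7%, within the 35.0 to 69.6% of the tested nuclear members. After the correction for GC content and length, MT-CO1, MT-CO2, MT-ND4 and MT-ND4L had log2 fold changes of -0.51, -0.65, -0.84 and -0.82, while the number of members that fell went from 11 to 17 and the share of all tested genes called from 11.4% to 28.4%.

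**Figure D5:**
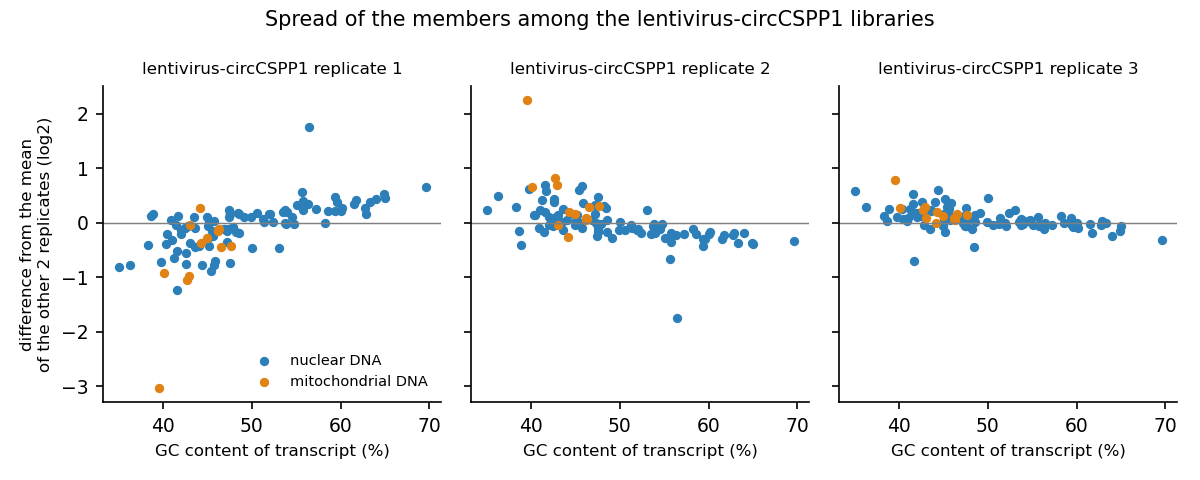
Difference of each circCSPP1 library from the mean of the other replicates (vertical axis, log2) against the GC content of the transcript (horizontal axis, percent), with 1 point per tested member, blue for nuclear and orange for mitochondrial genes. The points of replicate 1 rise with GC content and those of replicates 2 and 3 fall. For each gene the differences of the replicates cancel, so the panels are not independent. The lowest point of replicate 1 is MT-ATP8, at -3.03.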

How the data were processed

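Poly(A) RNA libraries of DU145 cells, 3 lentivirus-NC and 3 lentivirus-circCSPP1, were grouped by their titles. The authors deposited a table of FPKM per gene with 2 decimals; the submitters' processing notes name the hg38 build, and the aligner, counter and annotation are not given in the sources used here. No sample column was left unused.

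The 12322 of 19727 genes whose mean reached 1 FPKM were tested on log2(FPKM + 1) with limma 3.58.1 (lmFit, eBayes with trend, two-sided, no covariate) in R 4.3.3, with Benjamini-Hochberg adjustment and a threshold of 0.05. The fit was tested on simulated data. GC content, length and coordinates came from GENCODE 29 (GRCh38), taking the longest protein-coding transcript. FPKM holds no read counts, so depth was estimated from the steps between low values. Named were all members past the threshold, the mitochondrial genes, the 3 highest members, SDHA to SDHD, CYC1, CYCS, ATP5IF1 and the isoform pairs, and list genes past the threshold. Lists and members were chosen with earlier results of these data known. The 19 alternatives covered filters, pseudocounts, scalings, GC and length correction, the replicate block and left-out libraries; scaling on nuclear genes was chosen after seeing the data. A few items are not reported here.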

Additional observations from a re-analysis of the deposited data

How the results depend on the processing

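The alternatives changed counts more than directions. The count of all genes called, 1399, became 3502 with the correction for GC content and length. Members that rose numbered 1 in place of 2 under a filter at 5 FPKM, and members that fell numbered 2 with no filter, 7 with quantile normalization and 17 with the correction, in place of 11; mitochondrial genes that fell numbered 0 with no filter and 3 with quantile normalization, in place of 7. The cause was not tested, except that quantile normalization by construction equalises the highest ranks. The median log2 fold change of the members was -0.063 with median-ratio scaling and -0.147 with scaling on nuclear genes. That of the nuclear members was -0.029, -0.115 and, with quantile normalization, -0.100; that of nuclear complex I genes was -0.025 and -0.112; that of nuclear complex IV genes was -0.094 with no filter.

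Quantile normalization reversed MT-CO1 (0.066), MT-CO2 (0.0483), MT-CO3 (0.179), ATP5F1B (-0.103) and ATP5MC2 (-0.0522). TPM and median-ratio scaling reversed COX6A1 (0.00845 and 0.0329), and scaling on nuclear genes reversed ATP5F1B (-0.0225) and ATP5MC2 (-0.0151).

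Leaving out 1 library gave 293 to 3514 genes called. Members that rose numbered 1 to 3, members that fell 5 to 20 (5, 5 and 6 without NC replicate 1, 2 or 3, and 20, 10 and 6 without circCSPP1 replicate 1, 2 or 3), and mitochondrial genes that fell 5 to 8. Medians ran from -0.146 to -0.061 for members, -0.675 to -0.415 for mitochondrial, -0.085 to -0.04 for nuclear, -0.088 to -0.028 for nuclear complex I, -0.098 to 0.03 for complex II and -0.244 to -0.111 for nuclear complex IV genes. Genes that changed sign had ranges of -0.000195 to 0.0389 (ATP5F1B), -0.0523 to 0.0993 (ATP5MC2), -0.00393 to 0.101 (COX4I1), -0.0753 to 0.0587 (COX6A1), -0.506 to 0.135 (CYCS), -0.365 to 0.0741 (NDUFB10) and -0.0221 to 0.164 (SDHD).

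The submitters describe the 3 libraries of each group as paired without saying how. Correlations of same-numbered libraries were 0.073, 0.007 and 0.057. The main fit does not use the pairing, whereas the fits with the replicate block take libraries of the same number as pairs. With the replicate block 923 genes were called, 2719 when it was joined to the correction for GC content and length. The block called 10 members, 9 of them among the 13, with 1 that rose and 8 mitochondrial genes, and did not call COX7A2L, COX6B1, ATP5MC1 or UQCRC2. Replicates 1 and 3 of circCSPP1, but not replicate 2, correlated best with their own number.

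With 3 libraries in a group and no read counts, low members such as COX6B2 and NDUFA4L2 rest on low FPKM values whose fragment numbers are not given. An adjusted p above 0.05 does not show an equal level.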
